A study of Mus musculus with 8 samples.

Results

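The secreted Wnt antagonists examined here were Dkk2, Dkk3, Sfrp1, Sfrp2, Sfrp5, Frzb and Wif1, a listed set of 7 genes out of the 46517 in the bulk RNAseq tables and the 24051 in the single nucleus RNAseq (snRNAseq) tables. All 7 were present in both. The hippocampus was compared between Wls fl/-;Gfap-Cre mice (mutant), which carry a floxed and a null allele of Wls, and Wls fl/+;Gfap-Cre mice (control), which carry a floxed and a wild type allele, so that both genotypes carried the Cre transgene and a floxed allele. Wls encodes the carrier protein that cells need to secrete Wnts. The mice were 12 weeks old, each sample was both hippocampi of a single mouse, and each genotype had 2 samples for bulk RNAseq and 2 for snRNAseq. Gfap-Cre acts in only a subset of neural progenitors, so mutant tissue is a mixture of recombined and unrecombined cells.

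Secreted Wnt antagonists act outside the cell and by either of 2 routes. Dickkopf proteins such as Dkk2 bind the co-receptors Lrp5 and Lrp6, which frizzled receptors need for the beta-catenin pathway, whereas Dkk3 is a divergent family member for which Lrp binding is not established. The secreted frizzled-related proteins Sfrp1, Sfrp2, Sfrp5 and Frzb (also called Sfrp3) carry a frizzled-like domain that binds Wnts, and Wif1 binds Wnts through a domain of its own. Frzb is known from the dentate gyrus, where it is made by granule cells and restrains adult neurogenesis.

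The genes lie on separate chromosomes except for Dkk2 and Sfrp2, which are both on chromosome 3. In GENCODE coordinates on GRCm38 (mm10), Frzb occupies chr2:80411970-80447625 on the minus strand, Dkk3 chr7:112116017-112159057 on the minus strand, Sfrp1 chr8:23411502-23449632 on the plus strand, and Wif1 chr10:121033960-121100650 on the plus strand. Dkk2 occupies chr3:132085292-132180304 and Sfrp2 chr3:83766321-83774316, both on the plus strand, and Sfrp5 occupies chr19:42197971-42202252 on the minus strand. All are annotated as protein coding. RefSeq promoter sequences (GRCm38.p6) were available for 5 of the 7 genes, and 2 are shown because these genes had the largest increase and the largest decrease in fold among the members in bulk RNA, though neither passed the test. They are the 250 bases before the start of Sfrp5 (chr19:42202253-42202502, minus strand) and of Dkk2 (chr3:132085042-132085291, plus strand), written 5′ to 3′, and the core motif CTTTGA of TCF/LEF factors, the DNA-binding partners of beta-catenin, would stand in capitals on either strand.
Sfrp5: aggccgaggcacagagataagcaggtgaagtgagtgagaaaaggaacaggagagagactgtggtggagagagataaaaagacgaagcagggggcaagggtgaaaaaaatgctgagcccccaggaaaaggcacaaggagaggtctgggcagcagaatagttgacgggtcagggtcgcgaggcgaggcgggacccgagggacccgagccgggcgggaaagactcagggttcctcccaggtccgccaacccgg
Dkk2: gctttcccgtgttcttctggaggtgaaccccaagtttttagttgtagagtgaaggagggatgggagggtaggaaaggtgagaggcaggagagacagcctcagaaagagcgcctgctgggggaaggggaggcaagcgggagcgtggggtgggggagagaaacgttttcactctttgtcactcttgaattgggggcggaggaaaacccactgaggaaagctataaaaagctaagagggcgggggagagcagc
Neither held the motif. It was searched on both strands and was found once among the 5 member promoters, in that of Frzb, where the match ended 90 bases before the RefSeq start. Of those 250 bases, 229 lie inside the Frzb gene as GENCODE annotates it, so they are not printed as promoter. The motif was present in 13.8% of the 32851 promoters of this length.

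Bulk libraries held 56002381 to 79576196 expected counts, and the samples of nuclei held 26307081 to 76486132 UMIs in 5304 to 10460 nuclei, 29425 in all. There were 87 cell barcodes found in 2 or more samples, of 29338 distinct barcodes. The labels call all mice male, but both bulk libraries of replicate 2 had Xist at 101 (mutant) and 175 (control) TPM (a level scaled for depth and transcript length) with Ddx3y at 0.17 and 0.30 TPM, while both of replicate 1 had Xist at 0.35 and 0.12 TPM. The samples of nuclei all showed Ddx3y. Folds within each replicate number are therefore given below for the bulk data. Wls itself was lower in both mutant bulk libraries, at 2.61 and 5.44 TPM against 10.52 and 10.12 TPM in controls, and its UMIs were lower in mutant astrocytes (log2 fold change (FC) −4.28 ± 0.45 SE, edgeR false discovery rate (FDR) = 0.000227). Markers of granule cells, CA1, ependyma and choroid plexus also differed between the genotypes in bulk RNA, and their levels are given beside the members they moved with. Among the deposited cluster labels, 3 were at odds with the markers. The cluster deposited as inhibitory neurons 14 had 14 of 16 meningeal fibroblast markers, 7 of 7 mural markers and 6 of 6 endothelial markers above 10 CPM (UMI counts scaled to equal depth), and the cluster deposited as excitatory neurons 19 had 14 of 16 meningeal fibroblast markers above that level. They are called cluster 14 and cluster 19. Cluster 15, deposited as inhibitory, had 0 of 4 inhibitory markers above 10 CPM.

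The antagonists were highest in different cell types of the snRNAseq data. Dkk3 was highest in pyramidal and other excitatory neurons, Frzb in granule cells (labelled GC), Sfrp1 in clusters 14 and 19, choroid plexus and astrocytes, Wif1 and Sfrp2 in interneurons, and Dkk2 in a group of excitatory neurons and in interneuron cluster 18. The clusters were built from these same nuclei, so differences in level between clusters are a description and carry no test. Levels in nuclei are in CPM, from the summed UMIs of the gene over the summed UMIs of the cluster. Since transcripts differ in length and in the RNA retained in nuclei, values are compared across clusters within a gene, not across genes.

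**Figure D1:**
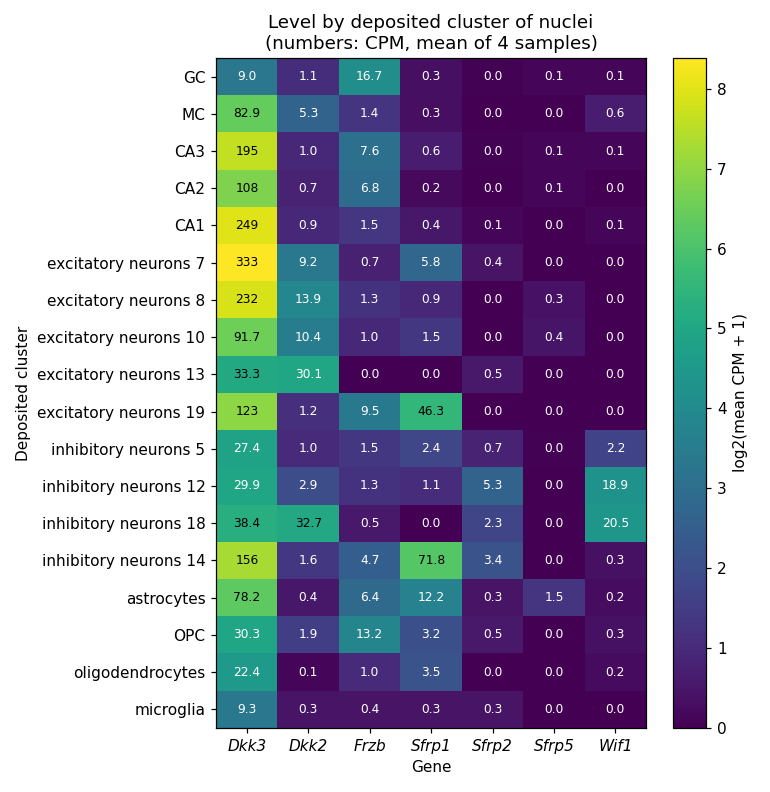
Colour shows log2(CPM + 1) for each antagonist (columns) in the 18 deposited clusters with at least 10 nuclei in every sample (rows), and the printed numbers are CPM, the mean of the 4 samples. Dkk3 is lowest in GC and microglia, whereas Frzb has its highest mean in GC (16.7 CPM).

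Dkk3 gave 30064 UMIs, and CA1 and CA3 together held 74.7% of them with 31.3% of the nuclei. In CA1 the level was 246 and 263 CPM in controls and 221 and 268 CPM in mutants. The highest cluster, excitatory neurons 7, had 312 and 353 CPM in controls and 283 and 386 CPM in mutants. The 4 highest clusters were excitatory neurons 7 at 333 ± 45.1 CPM (SD, n = 4), CA1 at 249 ± 21.4, excitatory neurons 8 at 232 ± 27.5 and CA3 at 195 ± 33.2. The ranges over samples of CA1 and excitatory neurons 8 overlapped, as did those of excitatory neurons 8 and CA3. These SDs are over samples of both genotypes. CA2 followed at 108 ± 15.2 CPM. Granule cells, in contrast, had 8.26 and 10.3 CPM in controls and 4.83 and 12.6 CPM in mutants, close to the mean of 9.32 CPM in microglia. Within every sample Dkk3 was far lower in granule cells than in the pyramidal cells of CA1, CA2 or CA3.

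The share of CA1 nuclei with a Dkk3 UMI was 82.1% in control replicate 1 (exact 95% binomial interval 79.8 to 84.2%) and 90.8% in control replicate 2 (89.1 to 92.3%), against 63.1% (60.6 to 65.5%) and 85.2% (83.8 to 86.6%) in mutants. The median depth of these nuclei ran from 5270 UMIs in mutant replicate 1 to 12164 in control replicate 2. After each nucleus was thinned to 1500 UMIs, which left out 0 nuclei, the shares were 29.0% and 34.5% in controls and 27.3% and 32.0% in mutants. Thinned shares were at most 1.94% in granule cells and at most 3.92% in microglia, so the granule cell values were not above those of a cell type with little Dkk3. These intervals cover counting error only.

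Dkk2, with 546 UMIs, was an excitatory neuron transcript outside the CA fields, and excitatory clusters 7, 8, 10 and 13 held 57.1% of its UMIs with 14.002% of the nuclei. In excitatory neurons 13 it measured 34.1 and 24.9 CPM in controls and 44.9 and 16.3 CPM in mutants. The 2 genotypes overlapped there. In interneuron cluster 18 it measured 46.6 and 0 CPM in controls and 53.0 and 31.1 CPM in mutants. The 0 came from 24 nuclei, which allows a share of up to 12.5% with a UMI. CA1 and granule cells were at a mean of 0.92 and 1.14 CPM. The small cluster labelled EC, with 24 nuclei in 3 samples and all 7 mural and 6 endothelial markers above 10 CPM, held 15 Dkk2 UMIs, for a mean of 116 CPM. That level rests on few nuclei of a kind sampled poorly in these preparations.

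Frzb, with 1057 UMIs, had its highest mean level in granule cells, which held 47.6% of its UMIs with 16.6% of the nuclei. It measured 18.3 and 13.96 CPM in control granule cells and 16.9 and 17.8 CPM in mutant granule cells. OPCs had 20.5 and 11.4 CPM in controls and 5.26 and 15.5 CPM in mutants, from 1 to 20 UMIs a sample. The OPC range overlapped that of granule cells and was above it in control replicate 1. Cluster 19 was at 9.53 ± 11.9 CPM (SD, n = 4), from 6 UMIs in all. CA3 was at 7.64 ± 0.47 CPM (SD, n = 4) and CA2 at 6.80 ± 1.83, and these neighbours did not differ beyond their spread. CA1 was lower in every sample, at 2.19 and 1.86 CPM in controls and 0.55 and 1.55 CPM in mutants. After thinning, 2.65% and 2.04% of control and 2.22% and 2.38% of mutant granule cells had a Frzb UMI. The thinned share in CA1 was 0.33% and 0.15% in controls and 0.06% and 0.15% in mutants. Within every sample Frzb was lower in CA1 than in granule cells, CA3 and CA2.

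Sfrp1 gave 464 UMIs, and astrocytes, choroid plexus (CP) and clusters 14 and 19 held 54.1% of them with 10.2% of the nuclei. Cluster 14 had 93.8 and 33.9 CPM in controls and 90.3 and 69.3 CPM in mutants. Cluster 19 had 26.8 and 91.4 CPM in controls and 42.1 and 24.7 CPM in mutants, from 2 to 10 UMIs a sample. CP nuclei were found in only 2 samples, with 50.3 CPM in 9 nuclei of control replicate 1 and 47.0 CPM in 184 nuclei of mutant replicate 2. Astrocytes followed at 17.9 and 15.5 CPM in controls and 8.60 and 6.76 CPM in mutants. The neuronal level was highest in excitatory neurons 7, at 5.76 ± 0.59 CPM (SD, n = 4), whereas CA1 and granule cells were at a mean of 0.44 and 0.26 CPM.

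Wif1, with 168 UMIs, was close to confined to interneurons, and the interneuron clusters 5, 12 and 18 held 87.5% of its UMIs with 10.7% of the nuclei. In cluster 12, which had 4 of 4 inhibitory markers above 10 CPM, it measured 20.6 and 26.2 CPM in controls and 14.6 and 14.4 CPM in mutants. Cluster 18 had 46.6 and 14.04 CPM in controls and 0 and 21.4 CPM in mutants. The 0 came from 52 nuclei, which allows a share of up to 5.77% with a UMI. Cluster 5 was at 2.23 ± 0.20 CPM (SD, n = 4), below cluster 12 in every sample. The share of cluster 12 nuclei with a Wif1 UMI ran from 6.42% (2.62 to 12.8%) in mutant replicate 1 to 21.2% (14.1 to 29.9%) in control replicate 2, against at most 0.17% of CA1 nuclei. Excitatory clusters 7, 8, 10 and 13 had 0 Wif1 UMIs in 4120 nuclei, which allows a share of up to 0.0728%.

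Sfrp2 and Sfrp5 were at the edge of detection in nuclei, with 62 and 24 UMIs. The interneuron clusters 5, 12 and 18 held 56.5% of the Sfrp2 UMIs with 10.7% of the nuclei. Cluster 12 had 3.43 and 3.97 CPM in controls and 10.4 and 3.37 CPM in mutants. Cluster 14 had the next highest mean, 3.44 CPM from 7 UMIs, and CP nuclei held 3 UMIs. Sfrp5 UMIs were in astrocytes (8) and in the CP nuclei of mutant replicate 2 (5), with the rest scattered at 4 or fewer a cluster. Neither passed the filter on low counts in any cell type, so in nuclei these 2 genes were tested only in the alternative with no filter, which called 0 members.

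**Figure D2:**
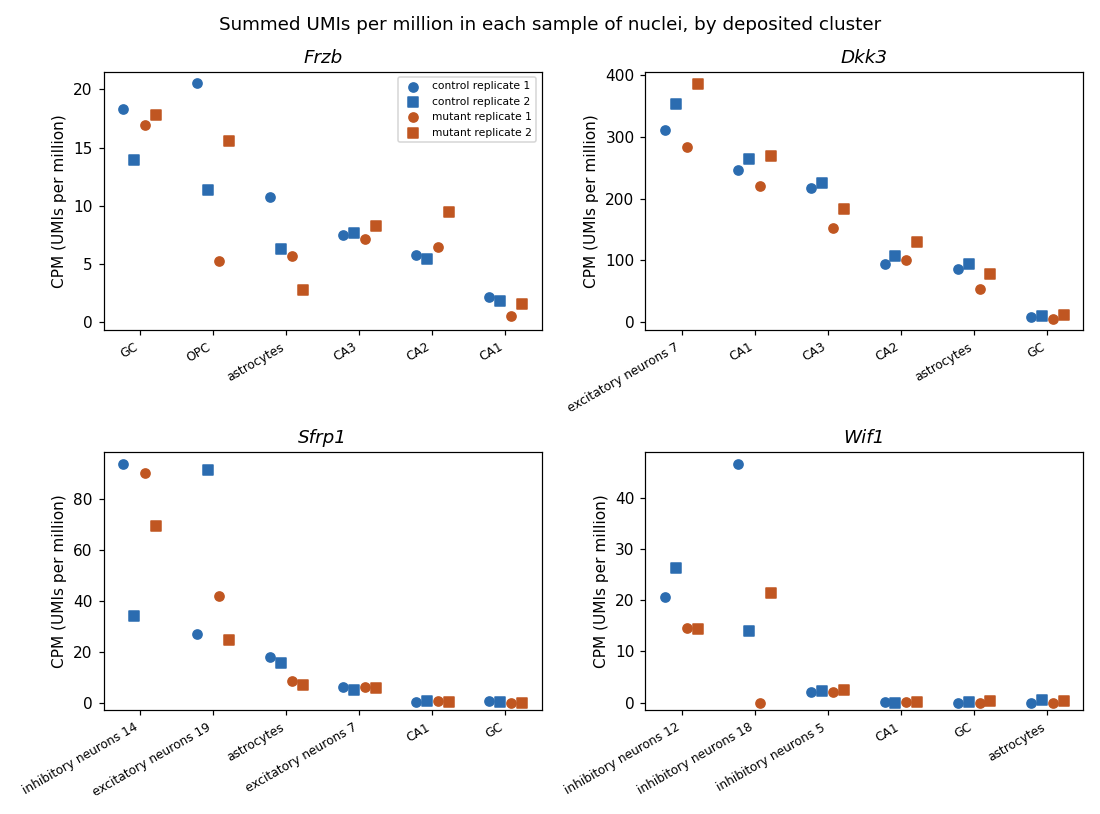
Each point is the CPM of 1 sample in a deposited cluster, for Frzb, Dkk3, Sfrp1 and Wif1, with controls in blue and mutants in orange. Frzb in granule cells lies between 13.96 and 18.3 CPM in all 4 samples, and Sfrp1 in astrocytes is lower in both mutant samples.

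Genes whose level across the 18 clusters was most like that of a member were named by Pearson's r of mean log2(CPM + 1). The closest to Frzb were Serpina3n (r = 0.84), Gm9968 (r = 0.84) and Adamts9 (r = 0.79). They were highest in OPCs, CA2 and astrocytes, in that order, and not in granule cells. For Dkk3, highest in excitatory neurons 7, they were Ankrd35 (r = 0.83), Fhl2 (r = 0.82) and Sept9 (r = 0.78). Those were highest in excitatory neurons 8, cluster 14 and cluster 19, in that order. For Sfrp1, Fam43a (r = 0.94) and D8Ertd738e (r = 0.94) were among the closest, both highest in cluster 14. The closest to Dkk2 were 2010300F17Rik (r = 0.89), Gm15942 (r = 0.88) and Vwc2l (r = 0.84), all highest in excitatory neurons 13. These clusters share libraries and differ in depth, so r is a description.

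Bulk RNAseq asked whether the whole hippocampus of the mutant held more or less of each antagonist. The transcript levels spanned more than 3 orders of magnitude, with Dkk3 at 217 to 298 TPM and Dkk2 at 0.10 to 0.17 TPM. Frzb was lower and Dkk3 slightly higher in both mutant libraries, and Sfrp1 and Sfrp5 were far higher in 1 mutant library. By the thresholds used for bulk RNA (FC above 3 and FDR below 0.05, edgeR quasi-likelihood test), 0 of the 7 genes were called, beside 0.218% of the 20687 genes tested. At an unadjusted p below 0.05 there were 3, beside 18.8% of all genes tested, and DESeq2 called 1, Sfrp5. After normalization, 4 genes (Dkk3, Sfrp1, Sfrp2 and Sfrp5) had both mutant libraries above both controls, where 25.8% of all genes did (for Sfrp1 by a narrow margin, and not in TPM), and 2 (Frzb and Dkk2) had both below, where 25.4% did.

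**Figure D3:**
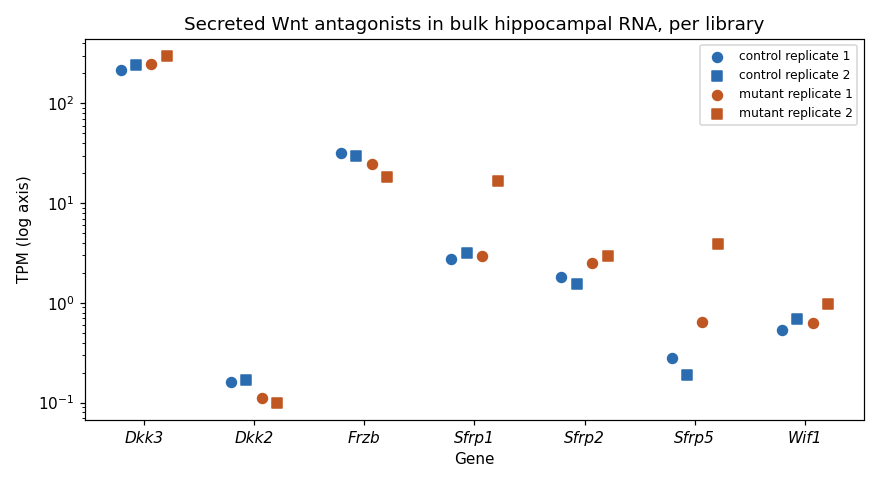
TPM (log axis) of each antagonist in the 4 bulk libraries, with controls in blue, mutants in orange, circles for replicate 1 and squares for replicate 2. Mutant replicate 2 stands apart for Sfrp1 (16.8 TPM) and Sfrp5 (3.90 TPM), while Frzb is lower in both mutants.

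Frzb measured 31.8 and 29.5 TPM in controls and 24.9 and 18.4 TPM in mutants. The groups did not overlap, and the log2 FC was −0.43 ± 0.14 (SE, edgeR FDR = 0.201). Mutant over control was 0.78 within replicate 1 and 0.62 within replicate 2. The 6 granule cell markers, of which 4 were called lower, summed to 146 and 148 TPM in controls and 29.8 and 26.3 TPM in mutants. In bulk RNA, fewer cells of a type and less RNA per cell cannot be told apart.

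Dkk3 measured 217 and 242 TPM in controls and 248 and 298 TPM in mutants. The log2 FC was 0.33 ± 0.09 (edgeR FDR = 0.151), with mutant over control at 1.14 in replicate 1 and 1.23 in replicate 2. The 4 CA1 markers, of which 0 were called, were all higher in both mutant libraries and summed to 251 and 309 TPM in controls and 340 and 450 TPM in mutants. These 4 markers were not particular to CA1 in nuclei. Their summed level was 454 CPM in CA1, 389 CPM in excitatory neurons 10, 334 CPM in excitatory neurons 8 and 335 CPM in interneuron cluster 18. CA1 is a main source of Dkk3 UMIs, and the part of CA1 RNA in the bulk value was not tested. Dkk2 was near the limit of detection, with 12.5 to 20.1 expected counts a library. It measured 0.16 and 0.17 TPM in controls and 0.11 and 0.10 TPM in mutants (log2 FC −0.62 ± 0.45, edgeR FDR = 0.529), a ratio of 0.69 in replicate 1 and 0.59 in replicate 2.

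Sfrp1 measured 2.73 and 3.17 TPM in controls and 2.97 and 16.8 TPM in mutants. Only mutant replicate 2 stood apart, 5.65 times above the other mutant, and mutant over control was 1.09 within replicate 1 and 5.30 within replicate 2. The log2 FC was 1.80 ± 0.74 (edgeR FDR = 0.279), and without mutant replicate 2 it was 0.13 (FDR = 0.705). Sfrp5 measured 0.28 and 0.19 TPM in controls and 0.64 and 3.90 TPM in mutants. Mutant over control was 2.29 within replicate 1 and 20.5 within replicate 2. Its log2 FC was 3.34 ± 0.91 (edgeR FDR = 0.156), and without mutant replicate 2 it was 1.57 (FDR = 0.163). Leaving out mutant replicate 1 instead gave 2.55 for Sfrp1 (FDR = 0.000623) and 4.09 for Sfrp5 (FDR = 0.00232), both past the thresholds.

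Choroid plexus markers moved with these 2 genes. All 16 were tested, 0 were called, and 16 had a positive log2 FC, with a median of 4.38, and their summed level was 335 and 190 TPM in controls against 1460 and 11296 TPM in mutants. Ttr, the transthyretin gene that defines choroid plexus epithelium, was at 154 and 58.1 TPM in controls and 1062 and 8761 TPM in mutants. The sum of the 16 meningeal fibroblast markers was 133 and 150 TPM in controls and 120 and 375 TPM in mutants. Of these 16, 10 had a negative log2 FC and 6 were lower without overlap, with a median of −0.15, and 1 was called, Slc22a6, which was lower in mutants. All 5 ependymal markers were higher in both mutant libraries, summing to 41.8 and 36.2 TPM in controls and 76.6 and 73.0 TPM in mutants, and 1, Dynlrb2, was called. Sfrp5 followed the same order of libraries as the choroid plexus sum, and Sfrp1 departed from the level of the other libraries only where that sum was highest. The paper also reports choroid plexus transcripts as raised in mutant bulk RNA, and proposes contamination at dissection as the likely source. The part of choroid plexus, meningeal and ependymal RNA in the bulk values was not tested.

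**Figure D4:**
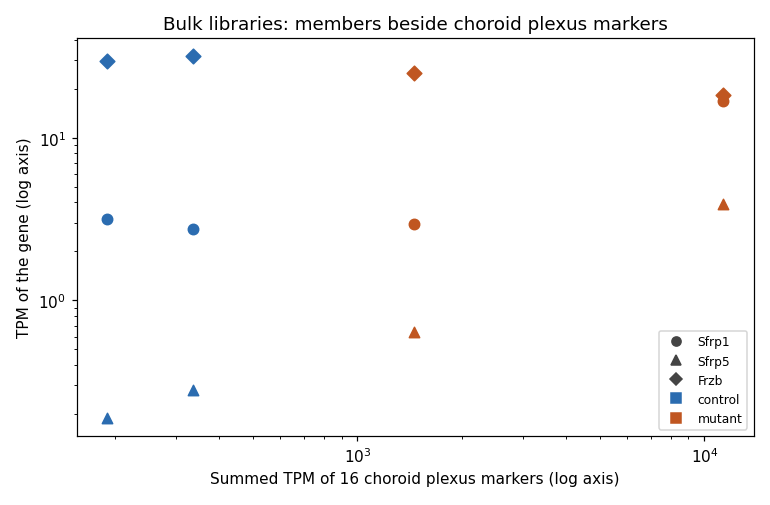
TPM of Sfrp1, Sfrp5 and Frzb against the summed TPM of 16 choroid plexus markers in the 4 bulk libraries, both axes logarithmic, controls in blue and mutants in orange. Sfrp1 and Sfrp5 are highest in the mutant library with 11296 TPM of these markers, where Frzb is lowest.

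Sfrp2 measured 1.82 and 1.54 TPM in controls and 2.51 and 2.92 TPM in mutants (log2 FC 0.46 ± 0.20, edgeR FDR = 0.291). Wif1 measured 0.53 and 0.69 TPM in controls and 0.63 and 0.98 TPM in mutants, with the genotypes overlapping (log2 FC 0.21 ± 0.37, edgeR FDR = 0.816). Within replicates 1 and 2, mutant over control was 1.38 and 1.90 for Sfrp2 and 1.19 and 1.42 for Wif1. Neither passed the thresholds.

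The snRNAseq data allow the genotypes to be compared within a cell type. Among 11 deposited cell types, 5 of the 7 genes passed the filter on low counts in at least 1 type, giving 23 tests. By FC above 2 and FDR below 0.05 (edgeR quasi-likelihood test on UMIs summed per mouse), 0 of the 23 were called, beside 0.253% of all gene-by-type tests. There were 4 at an unadjusted p below 0.05, beside 10.5% of all gene-by-type tests, and DESeq2 also called 0. In 5 tests both mutants were above both controls, where 20.7% of all tests were, and in 9 both were below, where 21.5% were. Taken by deposited cluster, 0 of 31 tests were called, beside 0.19% of all tests, and 3 were at an unadjusted p below 0.05 (9.31% of all), with 6 higher (19.9% of all) and 7 lower (20.6% of all) without overlap.

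Within granule cells Frzb did not differ beyond the spread between mice, with a log2 FC of 0.15 ± 0.27 (edgeR FDR = 0.845). In CA3 it was 0.07 ± 0.27 (FDR = 0.950). In CA1 the value was −0.80 ± 0.50 (FDR = 0.604) and in astrocytes −1.25 ± 0.66 (FDR = 0.529), from 2 to 13 UMIs a sample in astrocytes. The granule cell nuclei recovered were 2336 and 2007 in controls and 90 and 463 in mutants. The Frzb level of the mutant sample with 90 nuclei rests on few UMIs. In granule cells 220 of the 15003 genes tested were called (1.47%). The paper reports that the granule cells left in the mutant were mostly ventral, with nearly all dorsal ones missing. Comparisons within granule cells thus set nuclei with unlike dorsal and ventral shares side by side, and the part of this was not tested. Over whole samples Frzb was at 7.93 and 6.16 CPM in controls and 1.86 and 4.18 CPM in mutants.

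To separate makeup from level, each sample's cluster makeup was combined with the pooled control level of every cluster, a calculation chosen after the values were seen. At control levels, the mutants' makeup alone would have given Frzb at 2.63 and 3.88 CPM, and the measured values were 0.71 and 1.08 times these. The mean mutant level was 0.43 of the control mean as measured and 0.47 by makeup. Dkk3 was 1.21 times the control mean as measured and 1.32 by makeup. Dkk2 was 2.30 times as measured and 1.79 by makeup, which gave 4.21 and 2.51 CPM in the mutants. Excitatory cluster 8 held 2.02% and 1.17% of the UMIs in controls and 8.13% and 3.07% in mutants. Excitatory cluster 10 held 1.69% and 0.85% in controls and 6.41% and 4.72% in mutants. Excitatory cluster 13 held 1.66% and 1.63% in controls and 3.56% and 1.60% in mutants. Sfrp1 was 1.25 times by both, with mutants at 2.13 and 2.77 CPM as measured and 1.95 and 2.89 CPM by makeup. The control level of choroid plexus used in this makeup rests on 9 nuclei. For Wif1 the values were 0.98 as measured and 1.39 by makeup. Dkk2 went the other way in bulk RNA, where both mutant libraries were lower, near the limit of detection. This disagreement between the assays was not tested. The share of each cluster also depends on dissection and on the recovery of nuclei, whose parts were not tested.

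**Figure D5:**
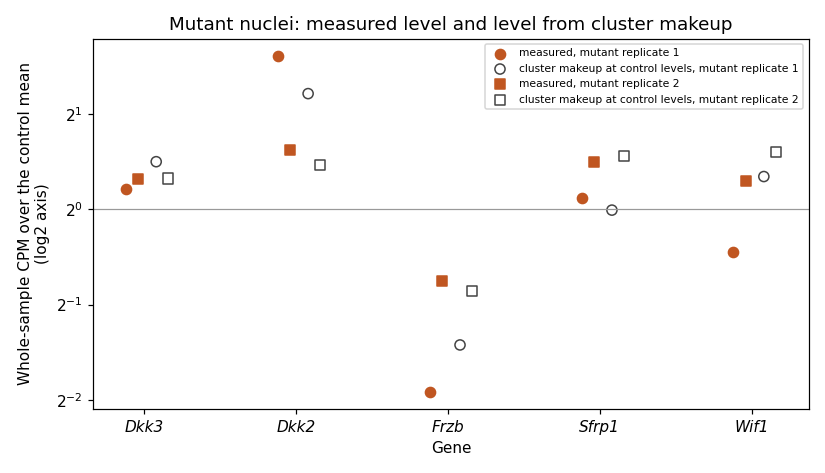
Whole-sample CPM of the 2 mutant samples of nuclei over the control mean (log2 axis), as measured (filled) and as given by each sample's cluster makeup at pooled control levels (open). For Frzb both lie below 1, and the mutant mean is 0.43 of the control mean as measured and 0.47 by makeup.

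Sfrp1 in astrocytes was lower in both mutants, with a log2 FC of −1.16 ± 0.44 (edgeR FDR = 0.313, unadjusted p = 0.0164). The counts behind it were 20 and 32 UMIs in controls and 3 and 17 in mutants, in 491, 570, 167 and 939 nuclei. Wls was also lower in mutant astrocytes, and a link between this and the level of Sfrp1 was not tested. In cluster 14 Sfrp1 was at 0.42 ± 0.46 (FDR = 0.957), with the genotypes overlapping.

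Dkk3 in CA1 had the most UMIs of these comparisons, with 2017 to 7083 UMIs a sample, and its log2 FC was −0.07 ± 0.16 (edgeR FDR = 0.904). In CA3 both mutants were lower, at 153 and 183 CPM against 217 and 226 CPM (log2 FC −0.37 ± 0.16, FDR = 0.397). In excitatory neurons 10 both mutants were lower as well, at 55.2 and 69.3 CPM against 126 and 116 CPM (log2 FC −0.91 ± 0.23, FDR = 0.291). In granule cells the value was 0.26 ± 0.36 (FDR = 0.769). Inhibitory neurons went the other way, with a log2 FC of 0.63 ± 0.18 (FDR = 0.261), and 0.55 (FDR = 0.440) without clusters 14 and 15. Cluster 14 alone gave 0.60 ± 0.28 (FDR = 0.902), at 206 and 169 CPM in mutants against 128 and 120 CPM in controls. In a fit blocked on replicate, the inhibitory value had an FDR of 0.0145 and stayed under the threshold of a 2-fold change, and CA3 had an FDR of 0.0551 (edgeR). None of these differences passed both thresholds.

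Wif1 was tested only in inhibitory neurons, where both mutants were lower (log2 FC −0.63 ± 0.36, edgeR FDR = 0.528). In interneuron cluster 12 the value was −0.69 ± 0.37 (FDR = 0.628). Dkk2 was higher in both mutant samples of inhibitory neurons, with 16 and 54 UMIs against 8 and 9 in controls (log2 FC 1.27 ± 0.45, FDR = 0.342). These 3 values were not past the thresholds either.

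The rest of the extracellular Wnt pathway was taken from lists of other antagonists, receptors of antagonists, Wnts, frizzleds and feedback targets. In bulk RNA, 0 of 7 other antagonists tested were called. The largest changes among them were Sostdc1 (log2 FC 3.16, edgeR FDR = 0.178), a sclerostin relative at 3.68 and 3.52 TPM in controls and 6.77 and 55.2 TPM in mutants, Sost (1.40, FDR = 0.611) and Notum, a secreted enzyme that inactivates Wnts (−0.95, FDR = 0.117). Apcdd1, a membrane inhibitor named here after its values were seen, reached an FDR of 0.0244 with a 1.93-fold decrease, short of the fold threshold. It measured 21.2 and 19.9 TPM in controls and 9.75 and 9.68 TPM in mutants.

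Of the 4 receptors, 0 were called, with Kremen2 at a log2 FC of −1.13, Lrp5 at 0.59 and Kremen1 at −0.14 (edgeR FDR of 0.203, 0.121 and 0.558). Of 17 Wnts tested 0 were called, with Wnt9b at −2.14, Wnt16 at −1.66 and Wnt6 at −1.37 (FDR of 0.0747, 0.129 and 0.473). Of 10 frizzleds 0 were called, with Fzd4 and Fzd10 both at 0.84 and Fzd7 at 0.54 (FDR of 0.0834, 0.0772 and 0.349). Of 9 feedback targets 1 was called, Lgr6, an R-spondin receptor, which fell from 12.7 and 11.8 TPM to 2.01 and 0.91 TPM (log2 FC −3.24 ± 0.34, FDR = 0.0282). Nkd2 was at 0.73 and Lgr5 at 0.64 (FDR of 0.124 and 0.284). In nuclei Lgr6 was a leading gene of granule cells, at 121 CPM there against 3.21 CPM in the rest. Fewer granule cell nuclei were recovered from mutants, and the part of granule cell number in the bulk fall of Lgr6 was not tested. The median log2 FC was 0.33 for the 7 members, −0.28 for the other antagonists and −0.11 for the feedback targets, beside 0.01 for all genes tested.

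Across cell types of nuclei, 0 of 15 tests of other antagonists, 0 of 31 of receptors, 0 of 29 of frizzleds and 0 of 55 of feedback targets were called. Of 68 tests of Wnts 1 was called, Wnt4 in granule cells, with 60 and 145 UMIs in controls and 9 and 139 in mutants (log2 FC 2.31 ± 0.34, edgeR FDR = 0.0137). In normalized levels these were 5.26 and 8.97 CPM in controls and 21.5 and 41.3 CPM in mutants. Of all genes tested in granule cells, 1.47% were called. The paper reports the remaining mutant granule cells as mostly ventral, and the part of this in the Wnt4 difference was not tested. In the same granule cells the level of Frzb, which binds Wnts outside the cell, ran from 13.96 to 18.3 CPM over the 4 samples.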

How the data were processed

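RNA and nuclei from both hippocampi of single mice were used, with 2 samples per genotype and assay. For bulk RNAseq the deposited files give RSEM expected counts and TPM per gene, and a deposited matrix of normalized signal, and RSEM 1.3.0 and Bowtie2 2.2.9 with the mm10 build are named in the submitters' processing notes. For snRNAseq the deposited UMI counts (Cell Ranger 3.1.0) came with the authors' cell type and cluster labels, which were kept. The authors' bulk test, EBSeq, was not available. FPKM columns were not used. Expected counts were rounded and tested with edgeR 4.0.16 (R 4.3.3; filterByExpr, TMM, quasi-likelihood, Benjamini-Hochberg over all genes). The same test was run on UMI sums of each mouse for the types that had 10 or more nuclei in all 4 samples. SE was derived from log2 FC and F. Alternatives used DESeq2 1.42.0, limma 3.58.1 on log2(value + 1) or log2(value + 0.1), other scalings and filters, a replicate block and each sample left out. Excitatory and inhibitory subclusters were joined as cell types. No doublet caller was run. The tests were checked on simulated counts with known changes.

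The members and lists were chosen with earlier results of these data known. Genes beside the members were named as the 3 nearest patterns of members with at least 200 UMIs among genes reaching 10 CPM, all list genes past the thresholds and up to 3 per list of largest absolute log2 FC, of which 1 is not reported here. Nuclei were thinned to 1500 UMIs for shares. An exact permutation test of 2 against 2 samples cannot go below p = 0.333 and was not used. P-values rest on 2 mice a group, and the fits draw the spread of each gene toward that of the other genes tested. Fits with a sample left out had a group of 1 mouse.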

Additional observations from a re-analysis of the deposited data

Results flagged for a closer look

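Dkk3 was the gene whose nuclei went in opposite directions in different cell types, among types with at least 10 UMIs in every sample. Both mutant samples were above both controls in inhibitory neurons (log2 FC 0.63), and both were below in CA3 (−0.37), excitatory neurons (−0.26) and astrocytes (−0.31). Of all gene-by-type tests, 20.7% were higher and 21.5% lower without overlap. Dkk3 was also tested in the most types, 10 before this UMI limit, against 6 for Frzb and fewer for the other members. The difference between cell types was not tested, and none of the 4 values passed the thresholds on its own. Without clusters 14 and 15, whose markers go against their label, the inhibitory value was 0.55. The excitatory value joined clusters whose mean Dkk3 level ran from 33.3 CPM in cluster 13 to 333 CPM in cluster 7. Cluster 10, at 91.7 CPM, held 1.69% and 0.85% of all UMIs in controls and 6.41% and 4.72% in mutants. The part of this makeup in the excitatory value was not tested.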

How the results depend on the processing

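The count of bulk members past the thresholds was 0 with RLE scaling, with either limma fit of the authors' matrix, with TPM, with FC above 2, with no fold threshold and with the replicate block, whereas DESeq2 called 1 (Sfrp5) and the fit with no filter on low counts called 2 (Sfrp1 and Sfrp5). Leaving out each bulk library in turn gave 0 to 2. The cause was not tested. Over all genes the count was 45, against 125 with DESeq2, 313 with no filter, 26 with the replicate block, 35 with TPM, 341 and 127 without mutant replicate 1 and 2, and 0 without either control. In nuclei the count of members was 0 under every alternative run, by type and by cluster, the alternative without clusters 14, 15 and 19 having been added after seeing the data.

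Of 217 alternative values of 22 log2 FCs, 206 kept their direction and side of the thresholds, 5 passed the thresholds only in the alternative and 6 reversed, all by leaving out 1 sample. The ranges over left-out samples were −0.20 to 0.51 for Wif1 in bulk RNA, −0.22 to 0.061 for Dkk3 in CA1, −0.96 to 0.45 for Dkk3 in granule cells, −0.034 to 0.13 for Frzb in CA3, −0.028 to 0.34 for Frzb in granule cells and −0.29 to 1.17 for Sfrp1 in cluster 14. Reversals came without mutant replicate 2 (Wif1, Dkk3 in granule cells, Frzb in CA3), mutant replicate 1 (Dkk3 in CA1) or control replicate 2 (Frzb in granule cells, Sfrp1 in cluster 14).

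The labels do not say that replicate numbers pair samples, though in bulk the number went with the Xist level, and the deviations of same-numbered samples correlated at 0.05 in bulk and 0.38 in CA1 nuclei. With the replicate block, Sfrp5 in bulk was at 2.95 (edgeR FDR = 0.194), Sfrp1 at 1.38 (FDR = 0.311) and Frzb at −0.43 (FDR = 0.121), and no call of a member changed. Dkk3 in inhibitory neurons was at 0.63 (FDR = 0.0145, edgeR), under the fold threshold, and in CA3 at −0.37 (FDR = 0.0551).

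Taking the highest cluster in place of the cell type moved the level of Dkk3 from CA1 to 333 CPM, of Sfrp1 from astrocytes to 71.8 CPM and of Dkk2 from excitatory neurons to 32.7 CPM. Thinning moved the mean share of nuclei with a UMI to 30.7% for Dkk3 in CA1, 2.32% for Frzb in granule cells and 1.60% for Dkk2 in excitatory neurons. With 2 mice a group, and 7 Frzb UMIs in the granule cells of mutant replicate 1, the depth limits what a comparison within a cell type can show.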
